A study of Mus musculus with 20 samples.

Results

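Of the 41174 different probes on the array, 14 carried the name of one of 8 genes of the membrane-spanning 4A (MS4A) family, namely Ms4a7, Ms4a6d, Ms4a6c, Ms4a6b, Ms4a4c, Ms4a4b, Ms4a4d and Ms4a8a. They were selected on their lung log2 ratios in the same dose comparisons, with earlier results known, so their differences between dose groups are given as a description, with no p-value. Where the fit across all probes called a member, that is given as a count beside the share of all probes called. Probes entered the comparisons where the lung signal stood well over background in 3 or more dams of some group, which kept 13 of the 14 and 30142 probes in all. Each of the 8 genes had at least 1 kept probe. The second Ms4a4c probe (A_51_P302977) was well above background on 1 of 5 arrays in every group and was not used further.

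The lungs came from female C57BL/6BomTac dams, 5 in each of 4 groups. All were time-mated and were instilled through the trachea 4 times while pregnant, at day 7, day 10, day 15 and day 18 of gestation. The control dams received the vehicle, Milli Q water. The low, medium and high groups received carbon black Printex 90, an industrial carbon nanoparticle, at 2.75, 13.5 or 67 µg per instillation, which makes 11, 54 or 268 µg in all. The dams were killed 26 to 27 days after exposure, with their litters weaned. Each dam had its own two-colour array, with lung RNA in Cy5 and the Stratagene universal reference RNA, the same on every array, in Cy3. Every value below is the log2 ratio of lung over that reference, as deposited by the authors. Ratios of different probes are not comparable as levels. Whole lung was measured, so fewer cells of a type and less RNA per cell cannot be told apart.

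MS4A proteins cross the cell membrane several times and sit beside immune receptors, whose signalling or traffic they modify. The best known are CD20 of B cells, encoded by Ms4a1, and the beta chain of the high-affinity IgE receptor of mast cells, encoded by Ms4a2. In mouse lung, macrophages and monocytes carry several others, and some occur in T cells, natural killer cells and neutrophils. Ms4a7 is known from tissue macrophages and microglia, and Ms4a6d from macrophages, where the mouse protein was found with the complement receptor Vsig4. Ms4a4b is known from mouse T cells and natural killer cells, and Ms4a8a from alternatively activated mouse macrophages and from gut epithelium.

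All 8 genes lie on chromosome 19 in the gene table of GRCm38.p6, between base 11067471, the lowest of Ms4a8a, and base 11604804, the highest of Ms4a6d. The family arose by duplication and its members resemble each other, so the probe sequences were compared with each other. The probes were not searched against the transcripts of the other genes. Bases shared between probes therefore do not settle which signals can be told apart. The 4 probes below are shown because they carry the longest runs of bases that 2 member probes share, in capitals. The coordinates are those of mm7, per the file headers, and 3 of the 4 span more than their 60 bases on the genome. The Ms4a7 probes lie at chr19:11001639-11001698 and chr19:11001661-11002436, both on the minus strand. The Ms4a4b probe lies at chr19:11134887-11137970 and the Ms4a4d probe at chr19:11232973-11234949, both on the plus strand.
Ms4a7 A_52_P59124: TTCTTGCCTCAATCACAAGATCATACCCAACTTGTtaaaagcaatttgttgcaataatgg
Ms4a7 A_51_P277216: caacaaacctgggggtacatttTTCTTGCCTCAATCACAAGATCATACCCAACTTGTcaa
Ms4a4b A_51_P136289: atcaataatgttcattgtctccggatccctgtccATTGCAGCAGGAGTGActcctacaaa
Ms4a4d A_51_P294505: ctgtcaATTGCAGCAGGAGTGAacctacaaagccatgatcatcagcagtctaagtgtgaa
The Ms4a7 probes have 35 bases in common and measure largely the same stretch, so they are not independent readings of the gene. Between genes the longest run was the 16 bases of the Ms4a4b and Ms4a4d probes, and their values could include some signal of the other transcript. Signal from another member's transcript was not tested for any probe.

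Ms4a7 stood out among the 8 genes at the high dose. Its probe A_51_P277216 read 0.15, -0.04, 0.43, -0.45 and 0.03 in control dams 4, 7, 14, 15 and 18, and -0.15, 0.03, -0.12, 0.14 and -0.28 in low-dose dams 25, 27, 28, 31 and 36. It read 0.34, 0.02, 0.07, 0.26 and 0.16 in medium-dose dams 46, 47, 48, 49 and 50, and 0.57, 1.37, 1.23, 0.40 and 1.28 in high-dose dams 60, 62, 63, 64 and 65. High-dose dams 62, 63 and 65 lay far above every other animal, whereas dam 60 was just above and dam 64 just below the highest control, dam 14. The high-dose mean was 0.97 ± 0.45 and the control mean 0.02 ± 0.32 (SD, n = 5 each), a difference of 0.95 ± 0.17 (SE of the limma fit) or 1.93-fold.

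The other Ms4a7 probe, A_52_P59124, gave 0.80, 1.34, 1.18, 0.59 and 1.39 in the high-dose dams in the same order, against 0.36, 0.07, 0.39, -0.33 and 0.13 in the controls. Here the groups did not overlap, and the difference was 0.94 ± 0.14. Within the 5 slides that held both groups, the high-dose dam exceeded the control on every slide, by 0.417 to 1.42 for A_51_P277216 and by 0.437 to 1.27 for A_52_P59124. Low-dose differences from control were -0.10 ± 0.17 and -0.04 ± 0.14 for these probes, and medium-dose differences were 0.15 ± 0.17 and 0.19 ± 0.14. Every medium- and low-dose dam lay within the control range or below its top, except medium-dose dam 46 (0.46) for A_52_P59124, where the highest control read 0.39. The difference between high and medium dose was 0.80 ± 0.17 for A_51_P277216.

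**Figure D1:**
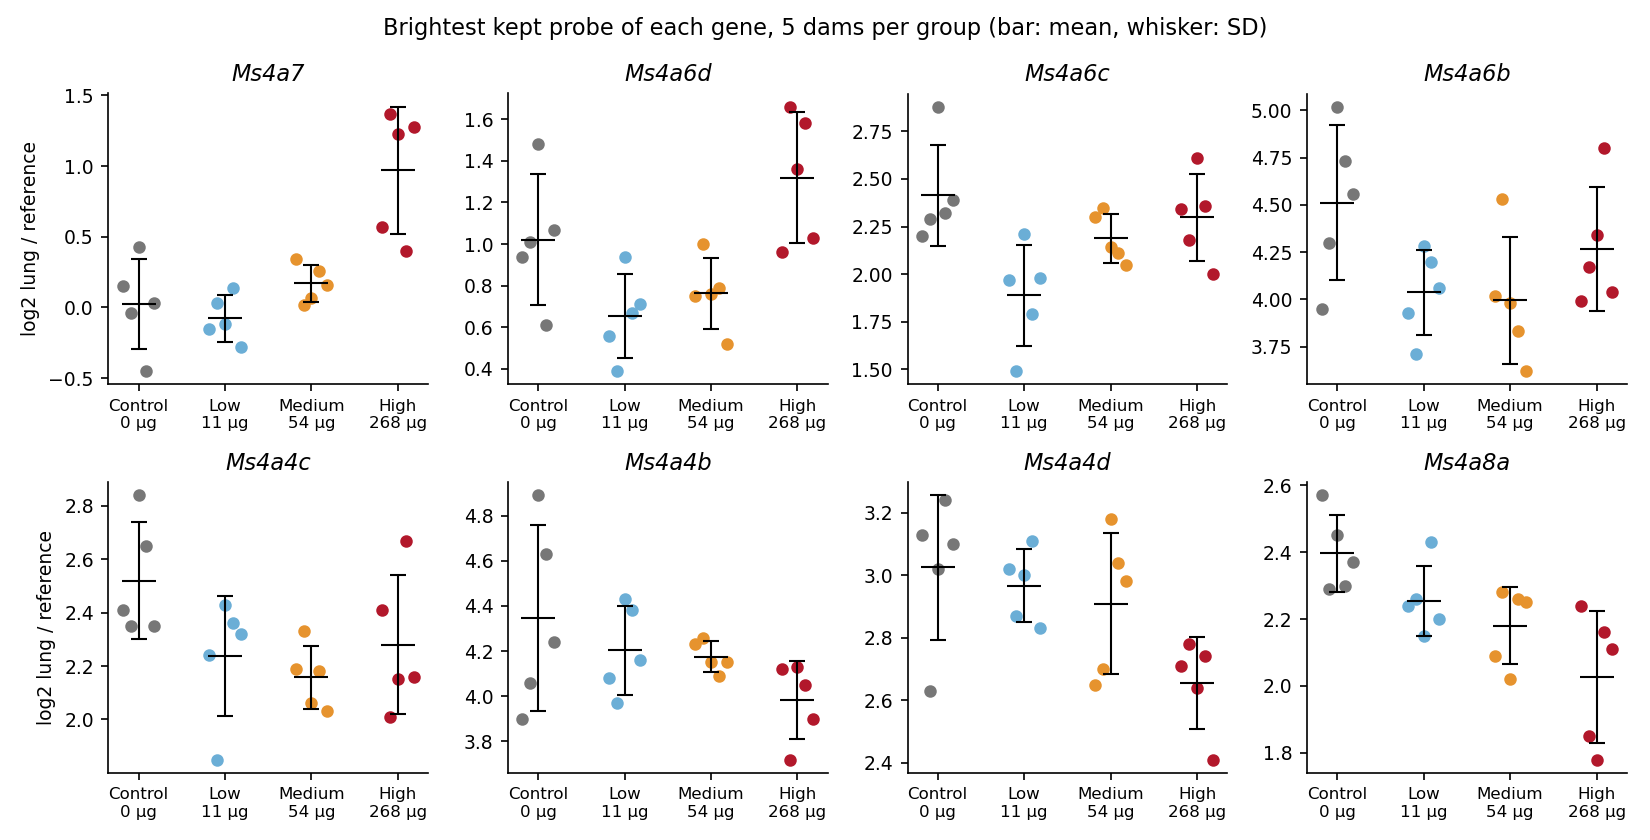
The log2 ratio of lung over reference (vertical axes, each with its own range) is plotted for the brightest kept probe of each gene, with 1 point per dam, a bar at the group mean and whiskers of 1 SD, against group and total dose. For Ms4a7, 3 of the 5 high-dose dams lie above 1, whereas the control dams reach no higher than 0.43.

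Ms4a6d followed a bent course over dose. It read 0.94, 1.01, 1.48, 0.61 and 1.07 in the control dams, 0.56, 0.39, 0.94, 0.67 and 0.71 in the low-dose dams, 0.75, 1.00, 0.76, 0.79 and 0.52 in the medium-dose dams, and 0.96, 1.66, 1.36, 1.58 and 1.03 in the high-dose dams. The low- and medium-dose dams lay in the lower part of the control range or below it, and 2 high-dose dams lay above every control. Its differences from control were -0.37 ± 0.15 at the low, -0.26 ± 0.15 at the medium and 0.30 ± 0.15 at the high dose, and high dose exceeded medium dose by 0.56 ± 0.15. A probe that the files name Ms4a11, an older name of Ms4a6d in the gene table and thus outside the selection by name, gave -0.41 ± 0.14, -0.26 ± 0.14 and 0.19 ± 0.14 in the same order.

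Ms4a6c and Ms4a6b, neighbours of the same subfamily, were lowest at the smaller doses with the deposited values. Ms4a6c read 1.97, 1.49, 2.21, 1.79 and 1.98 in the low-dose dams, against 2.20, 2.29, 2.88, 2.32 and 2.39 in the controls. Of these dams, dam 28 alone reached the control range, and the difference was -0.53 ± 0.13. It was -0.23 ± 0.13 at the medium and -0.12 ± 0.13 at the high dose. Low-dose dams lay below the control of their slide on 5 of 5 slides, with differences of -0.797 to -0.235. Ms4a6b differed from control by -0.48 ± 0.19, -0.52 ± 0.19 and -0.25 ± 0.19 at the 3 rising doses. It read 4.02, 4.53, 3.98, 3.83 and 3.62 in the medium-dose dams, against 3.95, 4.30, 5.02, 4.73 and 4.56 in the controls, and medium-dose dams 49 and 50 lay below every control. Its values at the high dose, 3.99 to 4.80, all lay within the control range, and its high-dose differences within slides ran from -0.682 to 0.0628.

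The RefSeq windows of 250 bases before and 50 bases after the gene start are shown for Ms4a6b and Ms4a6c, because they share the longest run of bases, in capitals, among the 15 pairs of 6 genes with 1 window each. The values of these genes correlated with r = 0.71 over the 20 arrays. The windows lie at chr19:11518309-11518608 and chr19:11469118-11469417 of GRCm38.p6, both on the plus strand.
Ms4a6b: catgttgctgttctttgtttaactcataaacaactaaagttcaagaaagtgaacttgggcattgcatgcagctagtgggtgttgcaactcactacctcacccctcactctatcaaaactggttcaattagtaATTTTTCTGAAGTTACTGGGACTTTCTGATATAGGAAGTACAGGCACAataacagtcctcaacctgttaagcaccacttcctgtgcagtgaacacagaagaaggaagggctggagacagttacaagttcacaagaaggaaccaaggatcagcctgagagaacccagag
Ms4a6c: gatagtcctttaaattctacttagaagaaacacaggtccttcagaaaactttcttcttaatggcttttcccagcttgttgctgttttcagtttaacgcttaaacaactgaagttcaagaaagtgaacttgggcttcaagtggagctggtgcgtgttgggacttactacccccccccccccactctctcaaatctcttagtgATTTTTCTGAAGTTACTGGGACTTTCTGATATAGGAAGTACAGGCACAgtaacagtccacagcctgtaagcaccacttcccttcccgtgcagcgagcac
The shared run is 48 bases long. Ms4a4b and Ms4a4c, whose values correlated with r = 0.68, shared 20 bases, and the other 13 pairs shared 7 to 13. The pair with the highest correlation of values, Ms4a6b and Ms4a4c (r = 0.81), shared only 8. Windows were found for 7 of the 8 genes, with 2 for Ms4a7. The letters TGANTCA, a loose form of the AP-1 motif with any middle base, were searched on either strand. They were present in 3 of these 8 windows and in 7.81% of all 32851 windows. They read TGAGTCA in Ms4a8a, TGAATCA in Ms4a4b and TGATTCA in 1 window of Ms4a7. GAGGAAGT, a PU.1 motif, was in 0 of 8 and in 3.2% of all. These counts describe letters in a window and nothing more.

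Ms4a4c had negative differences from control in each exposed group with the deposited values, none of which stayed below 0 with the software log ratio. It read 2.19, 2.33, 2.06, 2.18 and 2.03 in the medium-dose dams, against 2.41, 2.35, 2.84, 2.65 and 2.35 in the controls. Medium-dose dams all lay below the lowest control, with a difference of -0.36 ± 0.12, although the highest of them was 2.33 and the lowest control 2.35. At the high dose the difference was -0.24 ± 0.12 and dam 64, at 2.67, lay within the control range. At the low dose it was -0.28 ± 0.12.

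The 4 kept probes of Ms4a4b gave negative differences at each dose with the deposited values, a direction that 2 of them did not keep with the software log ratio given further on. High-dose differences from control were -0.36 ± 0.14 (A_51_P136294), -0.51 ± 0.14 (A_51_P136288), -0.52 ± 0.23 (A_51_P136289) and -0.50 ± 0.12 (A_52_P306949). Probe A_52_P306949 read 2.01, 1.84, 1.96, 1.65 and 1.70 in the high-dose dams, against 2.38, 2.23, 2.46, 2.48 and 2.12 in the controls. All high-dose dams were lower than all controls for this probe and for A_51_P136288, whereas the other 2 probes overlapped. Low-dose differences were -0.38 to -0.14 and medium-dose differences -0.34 to -0.17 over the 4 probes, and the sign of A_51_P136294 turned there too with the software log ratio.

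Ms4a4d differed from control by -0.37 ± 0.11 (A_52_P211956) and -0.34 ± 0.12 (A_51_P294505) at the high dose, with overlapping dams, and the sign of A_51_P294505 turned with the software log ratio. At the smaller doses that of A_52_P211956 turned. The corresponding values were -0.06 ± 0.11 and -0.13 ± 0.12 at the low dose and -0.12 ± 0.11 and -0.29 ± 0.12 at the medium dose. Its probes followed each other less closely over the 20 arrays (r = 0.39) than did the Ms4a7 probes (r = 0.99) or the pairs of Ms4a4b probes (r = 0.62 to 0.91).

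Ms4a8a means stood in the order of dose with the deposited values, but its sign turned at all 3 doses with the software log ratio. The means were 2.40 ± 0.12, 2.25 ± 0.11, 2.18 ± 0.12 and 2.03 ± 0.20 (SD, n = 5 each) in the control, low-, medium- and high-dose groups. It read 2.24, 1.85, 1.78, 2.16 and 2.11 in the high-dose dams, against 2.57, 2.29, 2.45, 2.30 and 2.37 in the controls. High- and medium-dose dams all lay below the lowest control, the highest medium-dose dam at 2.28. Differences were -0.14 ± 0.09, -0.22 ± 0.09 and -0.37 ± 0.09 from the low to the high dose, and the high-dose dam was lower than the control of its slide on 5 of 5 slides.

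**Figure D2:**
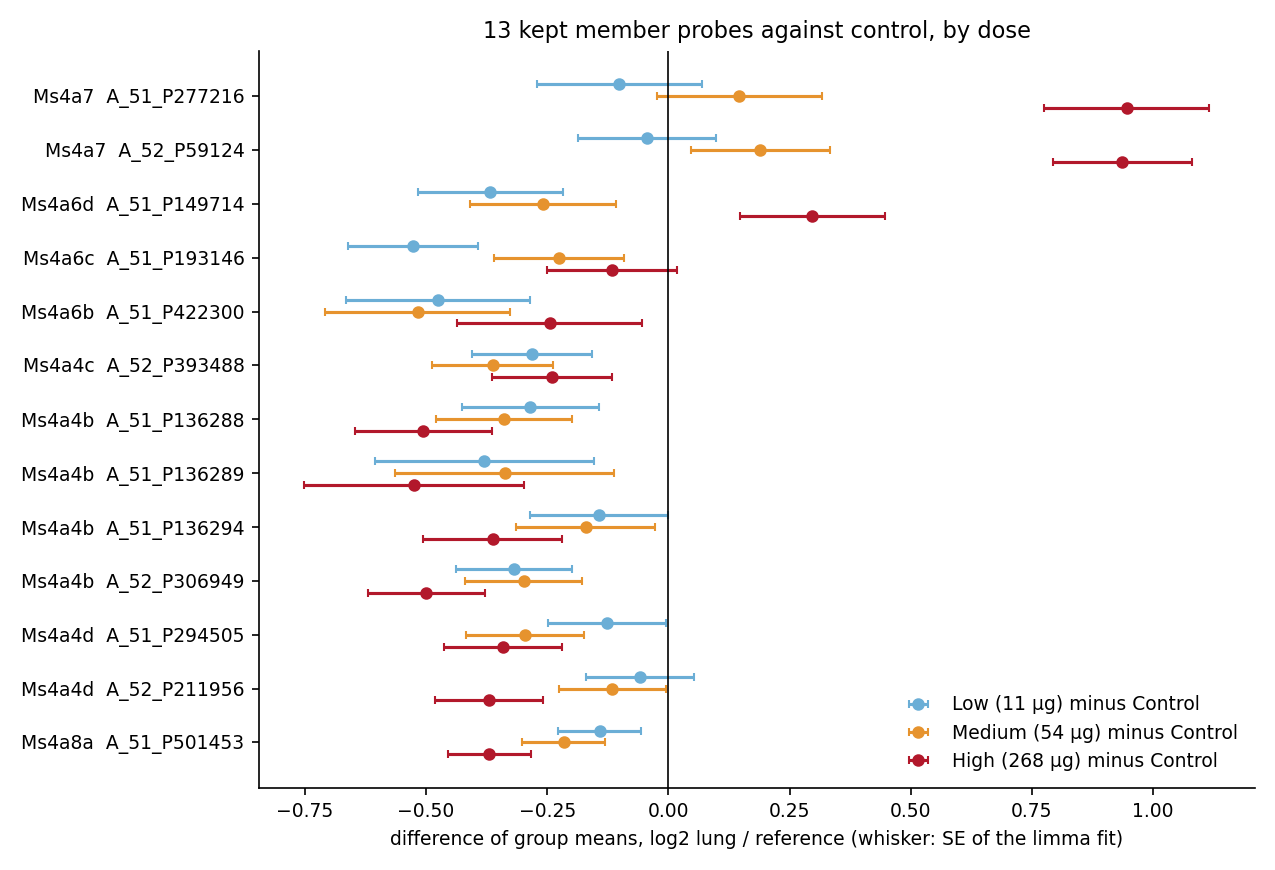
The difference in log2 ratio between each exposed group and control is plotted for the 13 kept probes, with the deposited values, with whiskers of 1 SE of the limma fit. At the high dose both Ms4a7 probes lie near 0.94 and Ms4a6d at 0.30, and the other 10 probes lie between -0.52 and -0.12.

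Read against all 30142 probes, most member probes had negative differences in all 3 exposed groups with the deposited values. Of the 13 kept probes, with those values and not with every setting, 13 were below 0 at the low, 11 at the medium and 10 at the high dose. Their medians were -0.28, -0.26 and -0.34 in that order, and the medians of all probes 0.00, 0.01 and -0.01. The limma fit called 4 of the 13 at the high dose (Benjamini-Hochberg adjusted p under 0.05), where it called 402 probes in all (1.33%). Both Ms4a7 probes were higher, with 0.7% of all probes called higher, and Ms4a8a and Ms4a4b A_52_P306949 were lower, with 0.634% called lower. No member probe was called at the medium or low dose, where 1 probe in all (0.00332%) was called in each. Dams that did not overlap with the controls were found at the high dose for 1 member probe above (1.83% of all probes) and 3 below (2% of all). At the medium dose they were found for 0 above (2.02%) and 2 below (1.22%), and at the low dose for 0 above (0.647%) and 0 below (0.856%). At an unadjusted p under 0.05, 7.36%, 14.2% and 17.3% of all probes passed at the low, medium and high dose. Since the choice of genes rested on these comparisons, nothing is drawn from these counts.

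The reference channel behind these ratios was dim for every gene except Ms4a7. The median Cy3 signal was 292 and 430 intensity units for the Ms4a7 probes, and 44 to 93.5 for the 11 other kept probes, over a local background of 19 to 21. It was well above background on all 20 arrays for Ms4a7. The same held for Ms4a6d, Ms4a6c, Ms4a4c, Ms4a4d A_52_P211956 and Ms4a4b A_51_P136294. For the other kept probes it was so on 4 to 18 arrays, the fewest for Ms4a4b A_52_P306949. That probe's mean Cy3 signal was 51.3 at the high dose and 42.5 in controls, and that of Ms4a8a was 73 and 66.8. Of the 10 probes below control at the high dose, 9 had a higher mean Cy3 signal there and 1 a lower one, Ms4a4b A_51_P136294 (78.1 at the high dose and 81.5 in controls). Ms4a6d, which was above control, also had a higher mean Cy3 signal (73.6 and 69.1). These are means of signals as scanned, and the share of all probes with such a rise was not computed. The mean Cy3 signal of Ms4a7 A_51_P277216 was 436 at the high dose and 438 in controls. Among all kept probes whose mean log2 ratio exceeded 2, as it did for 10 member probes, the median high-dose difference was -0.10 (1352 probes). It was -0.01 for the 10674 probes between 0 and 1, where Ms4a7 and Ms4a6d lie. For the 1352 probes the medium- and low-dose medians were 0.00 and 0.01.

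With the Cy5 channel alone, quantile normalised, 19 probes in all were called at the high dose. The high-dose difference was 0.99 ± 0.17 and 1.01 ± 0.17 for the Ms4a7 probes, both among those called. For Ms4a8a it was then -0.25 ± 0.12 and for Ms4a4b A_52_P306949 -0.32 ± 0.14, and neither was called, although all 10 probes below control stayed below 0. The software's own log ratio, which subtracts background from both channels, turned the high-dose direction of Ms4a8a (0.19 ± 0.22), Ms4a6b (0.16 ± 0.24), Ms4a6c (0.11 ± 0.23) and Ms4a4c (0.03 ± 0.14). It also turned the high-dose direction of the Ms4a4b probes A_51_P136288 (0.10 ± 0.36) and A_51_P136294 (0.05 ± 0.31) and of Ms4a4d A_51_P294505 (0.12 ± 0.35). Ms4a4b A_51_P136289 (-0.38 ± 0.58) and A_52_P306949 (-0.53 ± 0.65) and Ms4a4d A_52_P211956 (-0.03 ± 0.21) kept theirs. The smaller doses were affected too. With the software log ratio the brightest probes of Ms4a4b (0.27 and 0.29), Ms4a4c (0.03 and 0.00), Ms4a4d (0.13 and 0.18) and Ms4a8a (0.45 and 0.26) lay above control at the low and the medium dose. That of Ms4a4d did so with Cy5 alone as well (0.05 and 0.03). At the high dose 13 probes in all were called with the software log ratio. With it Ms4a7 A_51_P277216 stayed at 1.06 ± 0.19, no longer called, and Ms4a6d at 0.49 ± 0.21. The Cy3 levels and the split by mean ratio were looked at after these results were known.

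**Figure D3:**
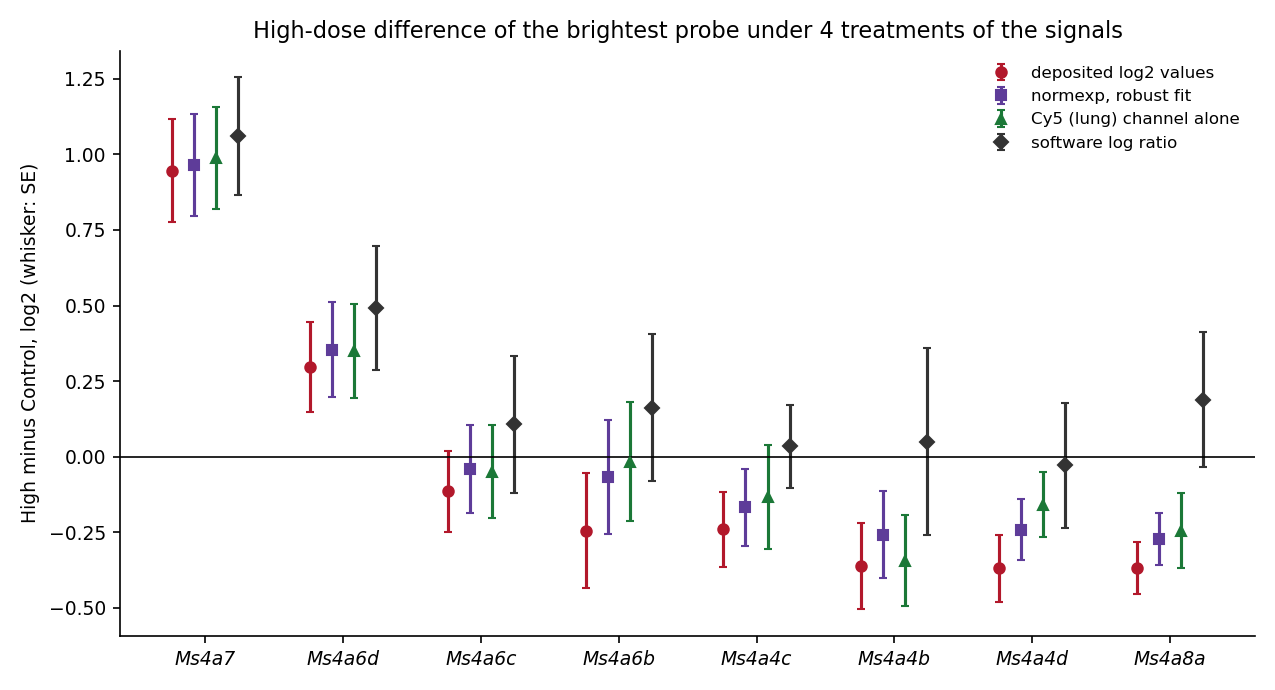
The high-dose difference from control (log2, whiskers of 1 SE) is plotted for the brightest kept probe of each gene, computed from the deposited values, from normexp background correction with a robust fit, from the Cy5 channel alone and from the software log ratio. Ms4a7 lies between 0.95 and 1.06 in all 4, whereas Ms4a8a runs from -0.37 with the deposited values to 0.19 with the software log ratio.

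Outside these 8 genes the family was thinly measured. Ms4a1 (0.17 ± 0.35), Tmem176a (0.12 ± 0.10) and Tmem176b (0.21 ± 0.07), the last 2 being related membrane proteins of myeloid cells, were not called at the high dose (limma adjusted p = 0.852, 0.58 and 0.122). The median of these 3 genes was 0.17, against -0.01 over all probes, and 0 were called at any dose. Ms4a2, Ms4a3, Ms4a5, Ms4a10, Ms4a12, Ms4a13, Ms4a14, Ms4a19 and Ms4a20 were too dim to be kept.

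Receptors with which MS4A proteins are known to associate, and their signalling partners, formed a list of 14 genes, all of them measured. At the high dose 10 of the 14 lay above control, with a median of 0.03. Of the 14, 1 was called higher and 0 lower, and 0 were called at the medium or low dose. The gene called was Trem2, a lipid-sensing receptor of macrophages, higher by 0.96 ± 0.13 (1.94-fold, limma adjusted p = 0.00221). Its 5 high-dose dams all lay above the controls. Its adapter Tyrobp differed by -0.09 ± 0.10 (adjusted p = 0.674), the beta-glucan receptor Clec7a by 0.25 ± 0.16 (adjusted p = 0.451) and the endotoxin co-receptor Cd14 by 0.71 ± 0.23 (adjusted p = 0.118). Trem2 was called in all 35 alternative settings run for it.

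Trem2 was also among the genes whose values followed Ms4a7 most closely. Among 25665 probes with a symbol, the highest Pearson correlations with Ms4a7 over the 20 arrays were those of Trem2 (r = 0.93, another probe than the one above), the costimulatory receptor Cd86 (r = 0.93) and Noxo1, the organiser subunit of an NADPH oxidase (r = 0.91). Computed on deviations from the group means, which removes the dose groups, r was 0.74, 0.88 and 0.73. These arrays share their dose groups, slides and reference RNA, so the correlations are descriptions.

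The nearest genes differed from member to member. They were Slfn1 (r = 0.92), Scrg1 (0.91) and Stfa2l1 (0.88) for Ms4a6b, and Sirpb1a (0.91), Lilra6 (0.88) and Scrg1 (0.86) for Ms4a4c. For Ms4a6d they were the innate signalling adapter Myd88 (0.88), the cytokine receptor chain Csf2rb (0.87) and the Fc receptor Fcgr3 (0.85), and for Ms4a6c Lrrc25 (0.86), the myosin Myo1f (0.84) and Ssbp4 (0.84). Ms4a8a was nearest to Lilra5 (0.84), the lectin Clec4b1 (0.82) and Kctd12b (0.81). Among the genes nearest to Ms4a4b were the hypoxia factor Epas1 (0.86) and the growth factor Bmp6 (0.83), and Ms4a4d was nearest to Fkbp15 (0.84), Syde1 (0.84) and the NADPH oxidase Nox4 (0.84).

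The 8 genes did not follow macrophage markers alike. The mean of 19 general macrophage and monocyte markers correlated with Ms4a7 (r = 0.70), Ms4a6d (0.66) and Ms4a6c (0.53), and less or inversely with Ms4a6b (0.33), Ms4a4c (0.17), Ms4a4b (0.10), Ms4a8a (-0.23) and Ms4a4d (-0.31). Ms4a4b, known from T cells and natural killer cells, had r = 0.26 with the mean of 14 T cell markers, 0.59 with that of 10 natural killer cell markers and 0.64 with that of the neutrophil markers. The macrophage list itself had a median high-dose difference of 0.17, with 13 of the 19 genes above control. Of the 19, 1 was called higher, Aif1, an actin-binding protein of macrophages (0.41 ± 0.10, limma adjusted p = 0.0406).

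Ms4a7 moved with markers of particle-laden or lipid-associated macrophages, though not with these alone. Of the 13 genes of that list, 12 lay above control at the high dose, with a median of 0.47. There 3 were called higher and 0 lower, and 0 were called at the other doses. The elastase Mmp12 rose by 0.98 ± 0.19 (limma adjusted p = 0.0181), the scavenger receptor Msr1 by 0.84 ± 0.20 (adjusted p = 0.0413), and the collagenase Ctsk, named here after its value was seen, by 0.60 ± 0.14 (adjusted p = 0.045). The Ctsk call was not among those checked under alternative settings. The list mean lay between 0.341 and 1.08 in high-dose dams and between 0.173 and 0.257 in controls. Its correlation with Ms4a7 was 0.87 over 20 arrays (Spearman's rho 0.66), 0.73 without high-dose dams 62 and 65 and 0.21 over the 15 arrays of the other groups, so it rested on the high-dose dams. On deviations from the group means the correlation was 0.66. Ms4a7 then had r = 0.70 with the T cell markers and 0.70 with the other family genes. With the receptor list it was 0.64 and with the dendritic cell markers 0.60. The part of particle-laden macrophages in the Ms4a7 values was not tested.

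Ms4a6b, Ms4a4c, Ms4a6c and, less closely, Ms4a4b moved with neutrophil markers, though not with these alone. Of 9 measured genes of that list, only 1 lay above control at the high dose. There 1 was called, the antimicrobial peptide gene Camp, which was lower (-1.33 ± 0.29, limma adjusted p = 0.0294). The next gene by p, Ngp, stood at 0.499-fold of control (adjusted p = 0.0553). Elane and Ms4a3 of that list were too dim. The list medians were -0.60, -0.43 and -0.35 at the low, medium and high dose. The list mean ranged from 2.27 to 3.20 in controls, 1.83 to 2.45 in low-dose dams, 1.80 to 2.69 in medium-dose dams and 1.76 to 2.40 in high-dose dams. Its correlation was 0.80 with Ms4a6b, 0.75 with Ms4a4c and 0.70 with Ms4a6c (Spearman's rho 0.79, 0.70 and 0.69). Without control dam 14, the highest array for that list, and medium-dose dam 47 these values were 0.68, 0.69 and 0.52. For Ms4a4b the correlation was 0.64 (Spearman's rho 0.45), and 0.34 without those dams. The mean of the interstitial macrophage and monocyte markers correlated with Ms4a6b (r = 0.59), Ms4a4c (0.59), Ms4a6c (0.66) and Ms4a4b (0.47). On deviations from the group means these values were 0.45, 0.52, 0.58 and 0.69. Those with the neutrophil markers were then 0.76, 0.65, 0.76 and 0.60. Ms4a6d had r = 0.47 with the neutrophil markers over the 20 arrays and 0.73 on those deviations. Ms4a4b had r = 0.51 and 0.59 with the lung endothelium markers in the same order. The part of neutrophil or monocyte content in the lower Ms4a values was not tested.

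**Figure D4:**
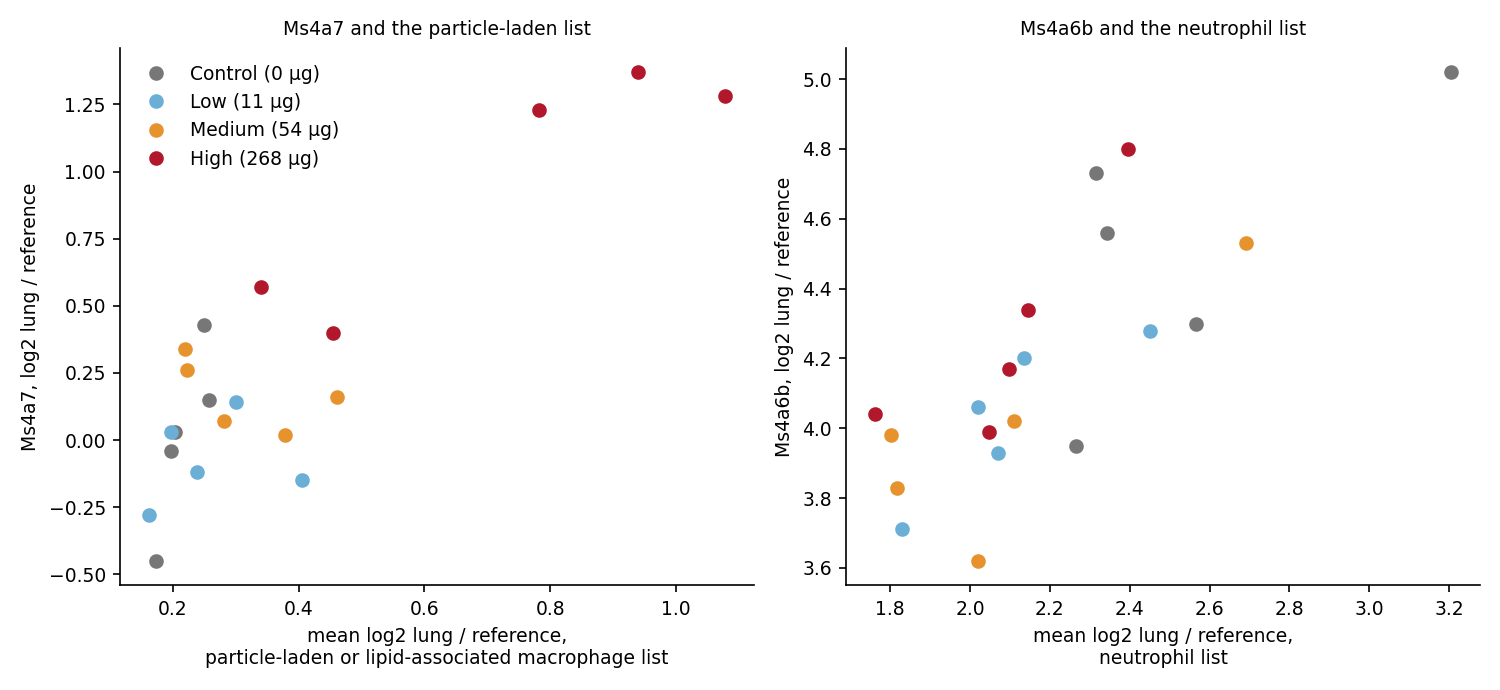
Each point is 1 dam, coloured by group, with the mean log2 ratio of a marker list on the horizontal axis and the log2 ratio of a gene on the vertical axis. Ms4a7 against the particle-laden macrophage list shows 3 high-dose dams apart from all others, and Ms4a6b against the neutrophil list shows a spread of all groups along one band, with control dam 14 at its upper end.

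Ms4a8a moved with natural killer cell markers (r = 0.63). At the high dose only 1 of these 10 genes lay above control, with a median of -0.58. There 5 were called lower, and 0 were called at the other doses. The receptors Klra8 and Klra7 differed by -0.91 ± 0.14 (limma adjusted p = 0.00433) and -0.74 ± 0.14 (adjusted p = 0.0157). The list mean was 1.49 to 1.88 in high-dose dams and 1.92 to 2.25 in controls. On deviations from the group means the correlation of Ms4a8a with this list was 0.16. With the alveolar macrophage list it was 0.54 over the 20 arrays and 0.54 on those deviations. With the particle-laden macrophage list it was -0.61 and -0.23. The part of natural killer cells or of macrophages in the lower Ms4a8a values was not tested.

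Markers of other cell types were measured beside these genes. Of 12 measured alveolar macrophage genes 5 lay above control at the high dose, with a list median of -0.04. Of the 12, 1 was called lower, Siglecf, a sialic acid receptor of alveolar macrophages and eosinophils (-0.93 ± 0.15, limma adjusted p = 0.00437). Of 9 dendritic cell genes 4, 2 and 3 lay above control at the low, medium and high dose. The gene called lower at all 3 doses was Siglech, a receptor of plasmacytoid dendritic cells. Its differences were -0.41 ± 0.05, -0.54 ± 0.05 and -0.44 ± 0.05 in that order (limma adjusted p = 0.00929, 0.000109 and 0.00175). None of the 12 interstitial macrophage, 10 B cell, 14 T cell, 6 mast cell, 11 epithelial or 8 endothelial genes was called at the high dose by limma, with list medians between -0.03 and 0.08.

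**Figure D5:**
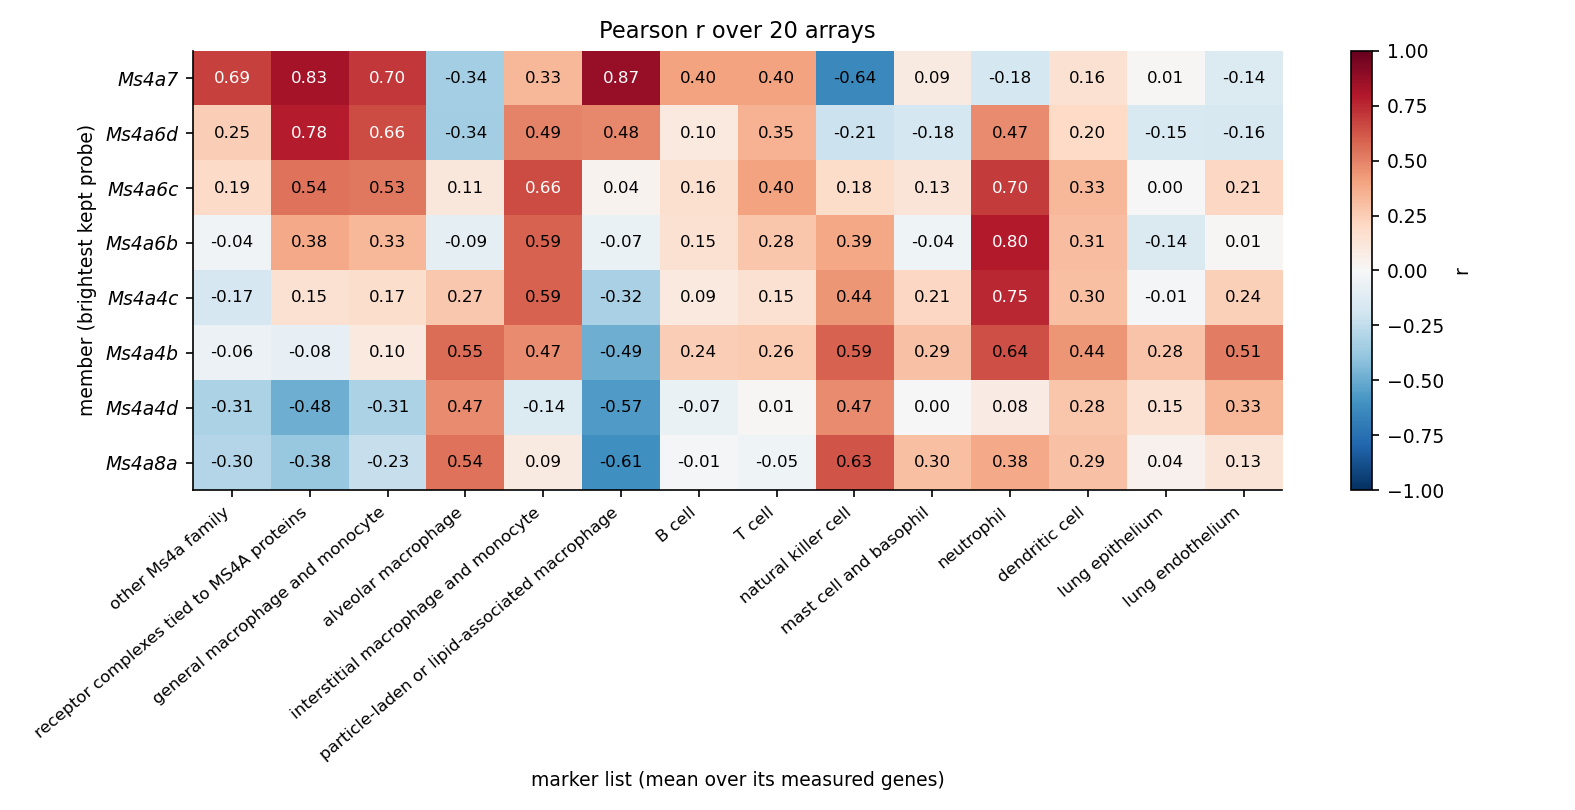
Pearson correlations over the 20 arrays are shown between the brightest kept probe of each gene (rows) and the mean of each marker list (columns), red for positive and blue for negative values. Ms4a7 is highest with the particle-laden macrophage list (0.87), and Ms4a6b, Ms4a4c and Ms4a6c with the neutrophil list (0.80, 0.75 and 0.70).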

How the data were processed

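Per the file headers, the deposited spot tables of Feature Extraction hold median signals and local backgrounds of both channels in scanner intensity units, and a log ratio on the log10 scale. The authors also deposited a value table of log2 ratios. Set against the arrays, it matched the Cy5 over Cy3 ratio with no background subtracted (r = 0.993 to 0.996 after loess), and the deviations from the probe means matched best with a column's own array on all 20, so scale and direction are known. Before loess, the column of high-dose dam 63 correlated slightly better with another array (r = 0.966) than with its own (r = 0.964). Column medians were -0.05 to -0.0315, and how they were centred is unknown. The headers name version 9.5.1.1, except on 2 medium-dose arrays, which were read with 10.1.1.1.

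The deposited log2 values were used because the selection of the genes names them. Spots of a probe were averaged, and 1 model over all 20 arrays was fitted with limma 3.58.1 (lmFit, eBayes), with Benjamini-Hochberg adjustment over the 30142 kept probes. This choice bears on the calls: at the high dose 402 probes passed, against 18 with normexp background correction. Replicates are dams. The members, the marker lists and the settings were chosen with earlier results of these data known. Named genes are all members and family genes measured, the receptors called plus Trem2, Tyrobp, Clec7a and Cd14, the 2 genes of each marker list with the smallest high-dose p (some are not printed), and for each member the 3 nearest probes by correlation, of which 1 is not reported here. Of the probes, 22944 were named through an accession, 6664 through a symbol, 3108 through a synonym and 8458 kept the name in the file.

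Over the arrays, 64 to 78.3% of features had a Cy5 signal well above background. The number of arrays limits the precision. Slides 1 to 3 held all groups, slides 4 and 5 lacked the medium dose, and slide 6 carried nothing but 2 medium-dose arrays. A group always took the same place on a slide that carried controls, so position and group cannot be told apart. The fit was tested on simulated data.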

Additional observations from a re-analysis of the deposited data

Results flagged for a closer look

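In 52 groups of 5 dams, 4 groups for each kept probe, 3 had 1 dam far from the others by Dixon's ratio of gap to range, which chance alone gives in about 1 of 20 groups. High-dose dam 63 was the highest of its group for Ms4a4b probe A_51_P136288, at 3.55 with the next dam at 3.38. Low-dose dam 27 was the lowest of its group for Ms4a4b probe A_52_P306949, at 1.64 with the next at 2.07. Control dam 14 was the highest control for Ms4a6c, at 2.88 with the next at 2.39, and it was also the highest of all 20 dams for the neutrophil marker mean, at 3.20.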

How the results depend on the processing

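At the high dose 402 probes passed with the deposited values, 18 with normexp, 78 with normexp fitted robustly, 13 with the software log ratio, 19 with Cy5 alone, 258 after scaling between arrays, 657 without the filter on dim probes, 208 with 1 probe per gene, 1170 with the slide and 812 with the scan date as a block, and 58 on the arrays of these groups alone. Of the 4 member calls, 2 remained in number with either normexp form, Cy5 alone, scaling or 1 probe per gene, 1 with the software log ratio and 0 on the arrays of these groups alone, and 6 passed with the slide as a block. Omitting 1 dam gave 108 to 396 probes and 2 to 5 member probes. The total was 108 without control 15, 170 without control 18, 217 without control 7, 252 without control 14, 162 without high-dose dam 62 and 200 without dam 63. The member count was 2 when control 4, 14, 15, 18, or dam 62 or 63 of the high dose, was omitted. The Ms4a7 probes were called in 33 of 35 (A_51_P277216) and 33 of 34 settings (A_52_P59124), all 20 omissions included, and the difference of A_51_P277216 was 0.83 to 1.09 over the omissions. Ms4a8a was called in 23 of 35 settings and reversed to 0.19 with the software log ratio, which also turned 4 genes at the smaller doses. Ms4a4b A_52_P306949 was called in 13 of 34. Since the choice of genes rested on these comparisons, the member calls are given as a description. At the medium dose the count of 1 became 0 with normexp, the software log ratio, Cy5 alone or the arrays of these groups alone, 4 without the filter, 2 with the slide as a block and 1 to 6 over the omissions (4 without control 4, 5, 6 and 6 without medium-dose dams 46, 47 and 49, and 2 and 3 without high-dose dams 62 and 63). At the low dose it became 0 with both normexp forms, the software log ratio, Cy5 alone, the slide as a block or the arrays of these groups alone, and 0 to 2 over the omissions (0 without control 4, control 18 or dam 27, and 2 without dam 63). The causes were not tested. With normexp the array of low-dose dam 27 had a slope of 0.68 on the other arrays, against 1.00 with the deposited values. Alternatives for genes outside the family were run after the data were seen: Siglecf and Klra8 were called in 32 of 35, Mmp12 in 31, Klra7 in 29, Camp in 24, and Msr1 and Aif1 in 20. Over the 20 omissions of 1 dam, Msr1 was called in 10, Aif1 in 12, Camp in 14, low-dose Siglech in 17 and Klra7 in 19. Dams could not be paired by replicate number because the groups share none. The slides, which they do share, entered as a block above.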
